A study of Mus musculus with 15 samples.

Results

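Mitochondrial fission and fusion genes were examined in mouse pancreatic islet cells sorted for a cre-activated red fluorescent protein. The set held 7 genes, Fis1, Mff, Dnm1l, Mfn1, Mfn2, Opa1 and Oma1, found by their symbols in each library's gene table. Each symbol was listed once with a usable estimate in every library, so all 7 of the 7 genes could be used, among 22924 genes in all. The set had been chosen partly on measured values, because Fis1 was among the genes most clearly lower in ALDH+ than in ALDH- control cells. Values of that contrast are therefore given as a description, with no test.

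Mitochondria form a network that is continually divided and joined. Division is carried out by the dynamin-related GTPase DRP1, encoded by Dnm1l, which is recruited from the cytosol by adaptors in the outer membrane. MFF is the best characterised adaptor in mammals, and FIS1 is a small outer-membrane protein that also takes part in fission and in the turnover of mitochondria. Mitofusins 1 and 2 join outer membranes, and OPA1 joins inner membranes and shapes the cristae. OMA1 is a stress-activated protease of the inner membrane that cleaves OPA1 and so limits fusion. In β cells, respiration couples glucose to insulin release, and the shape of the mitochondrial network is known to change with nutrient load.

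The cells came from islets of mice on a mixed 129JC57BL/6 background. The labels gave no age, and the sorting protocol describes RIP-Cre mice that were 6 months old. All carried a cre-activated red fluorescent protein, which in RIP-Cre mice marks β cells or cells that once were β cells. The fluorescent substrate aldefluor then split them into ALDH- and ALDH+ cells, the latter enriched for ALDH1A3 activity. Control mice were labelled heterozygous for Foxo1, Foxo3 and Foxo4, and knockout mice were labelled as triple knockouts of the same genes. The methods text instead calls the controls wild-type for these genes, and the labels were followed here. RIP-Cre, active in insulin-producing cells, was the driver in 9 libraries, and Pdx-Cre, active from pancreatic progenitors onward, in 6. In the Pdx-Cre libraries the red protein can therefore also mark other pancreatic cells. Control ALDH- cells gave 3 libraries (replicates 1 and 2 RIP-Cre, replicate 3 Pdx-Cre) and control ALDH+ cells 2 (replicate 1 RIP-Cre, replicate 2 Pdx-Cre). Knockout cells gave 5 ALDH- and 5 ALDH+ libraries, with replicates 1 to 3 RIP-Cre and 4 and 5 Pdx-Cre in both. The study's sorting methods describe RIP-Cre mice and islets of several animals per genotype, and the labels do not say whether libraries are separate animals or pools. P-values therefore measure the spread between these libraries, which may be partly technical. These are bulk samples, in which fewer cells with a transcript and less of it per cell cannot be told apart.

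Levels were deposited as FPKM, fragments per kilobase of transcript scaled to the depth of the library. Fragments worked out from the confidence intervals came to about 7492220 to 10058043 per library. These totals are approximate and cover all listed lines with an FPKM above 0. Aldh1a3 was between 0.490 and 4.09 FPKM in ALDH- libraries and between 22.1 and 76.9 FPKM in ALDH+ libraries. Foxo1 was 12.04 to 20.1 FPKM in control libraries and 0.0925 to 4.24 FPKM in knockout libraries. Foxo4 was 0 to 1.34 FPKM in control and 0 to 0.0669 FPKM in knockout libraries. These ranges overlapped, so Foxo4 does not check the label of each library. Foxo3 was not lower in the libraries labelled knockout (9.78 to 30.6 FPKM) than in controls (12.7 to 23.0 FPKM). These values show no loss of the Foxo3 transcript and do not check its label. The deleted part of Foxo3 is not given in the labels, and whether the gene-level value includes exons outside it was not examined. Markers of β cells were abundant throughout (summed FPKM of the 6 usable β-cell markers of 8, 34268 to 126053). Endothelial and mesenchymal marker sums were at most 1.48 and 0.715 FPKM. Marker sums of other islet and pancreatic cells were well above 0 in some or all libraries. The sum of 5 α-cell markers was 722 to 35850 FPKM in control ALDH-, 318 to 5830 in control ALDH+, 672 to 17357 in knockout ALDH- and 157 to 1019 FPKM in knockout ALDH+ libraries. The δ-cell (3 markers) and PP-cell (2 markers) sums were likewise highest in a control ALDH- library, at 14029 and 18184 FPKM. The sum of 6 acinar markers was 1.79 to 24.0 FPKM in control ALDH- and 0 to 1380 FPKM in control ALDH+ libraries. Over all libraries, that of 5 duct markers was 211 to 821 FPKM and that of 5 macrophage and leukocyte markers 23.3 to 152 FPKM. Cftr of the duct list was at 0 in all control and all RIP-Cre knockout libraries. Sox9 was at 0 in all control ALDH+ and all Pdx-Cre knockout libraries. Ptprc of the leukocyte list was at 0 in all control ALDH+ and all knockout ALDH- libraries. These 2 sums alone therefore do not show that duct cells or leukocytes were present. The part of all these markers in the results was not tested.

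The 7 genes lie on 5 chromosomes in the mm9 coordinates of the deposited tables, and none overlapped another listed gene. Fis1 spans chr5:137429145-137442104 and Mff chr1:82721493-82748964. Dnm1l spans chr16:16312326-16359123, on the same chromosome as Opa1 at chr16:29579420-29654688. Mfn1 spans chr3:32428404-32478147, and Mfn2 and Oma1 lie on chromosome 4, at 147247704 to 147278928 and at 102986451 to 103039033. Fis1 has the shortest spliced transcript of the set, with a median length of 786 bases in the GENCODE annotation, against 1710.5 for Mff, 1915 for Oma1, 3264 for Dnm1l, 3675.5 for Mfn1, 4142 for Mfn2 and 4730 for Opa1. It is also the only gene of the 7 for which the deposited tables list 2 start sites, whose transcripts are summed in the single Fis1 value.

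The RefSeq start sites of Fis1 (GRCm38.p6) are 8802 bases apart. Whether they are the start sites listed with the deposited values was not checked. The 100 bases before each RefSeq site are shown, 5′ to 3′ on the plus strand, because Fis1 is the gene that set the list. Capitals mark CpG dinucleotides. The first stretch lies at chr5:136953175-136953274 and the second at chr5:136961977-136962076.
Fis1 start site 1: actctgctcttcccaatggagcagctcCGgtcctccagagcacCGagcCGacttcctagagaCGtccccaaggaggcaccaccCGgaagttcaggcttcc
Fis1 start site 2: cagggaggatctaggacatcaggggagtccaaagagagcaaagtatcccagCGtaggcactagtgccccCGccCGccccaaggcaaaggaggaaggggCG
Over the full promoter window, 250 bases before to 50 after the start, site 1 held 21 CpG at 65% GC and site 2 held 8 CpG at 54.7% GC. The median over all 32851 mouse promoters was 7 CpG at 52.7% GC.

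All 12 RefSeq promoters of the 7 genes were searched on both strands for 4 motifs. The FoxO motif TGTTTAC was in 0 of 12 windows, against 3.65% of all promoters. The cyclic AMP response element TGACGTCA was also in 0 of 12 (1.79% of all), as was the oestrogen-related receptor motif AAGGTCA (4.72% of all). The NRF1 motif GCGCATGC was in 1 of 12, that of Opa1, against 2.71% of all promoters. The Opa1 match is shown because it is the single match of the 4 searches. It is palindromic, so the motif is read on both strands in overlapping positions, and capitals mark the 10 bases they cover together, starting 59 bases before the start site (GRCm38.p6, chr16:29579263-29579296, plus strand).
Opa1: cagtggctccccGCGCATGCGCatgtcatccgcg
A match here is a string of letters in a window, and binding was not measured.

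Fis1 was the most abundant of the 7 genes, with a mean of 67.0 ± 25.3 FPKM (SD, n = 15 libraries), and Oma1 the least abundant, with 6.99 ± 3.22 FPKM. Mff followed Fis1 with 33.6 ± 9.83 FPKM, then Dnm1l with 28.3 ± 3.80, Opa1 with 22.7 ± 4.11, Mfn2 with 15.9 ± 2.45 and Mfn1 with 9.66 ± 2.39 FPKM. Each neighbour in this order was the higher of the pair in 13 or 14 of 15 libraries, except Mff over Dnm1l, which held in 10 of 15. The order of Mff and Dnm1l, the adaptor and the GTPase it recruits, was not the same in the 2 ALDH classes. Mff was above Dnm1l in every ALDH- library, most closely in knockout ALDH- replicate 5 (26.03 against 25.99 FPKM). It was below Dnm1l in most ALDH+ libraries, and this order was not tested. Fis1 ranked first in 14 libraries and 6th in control ALDH+ replicate 1. Here and in the comparisons that follow, libraries are said to overlap or not on FPKM as deposited, without rescaling. The share of all genes whose groups do not overlap was not worked out. Groups of so few libraries can separate by chance, so non-overlap is a description only. Between libraries, Dnm1l varied least (coefficient of variation 13.4%) and Oma1 (46.1%) and Fis1 (37.7%) most. The fragments behind a value were fewest for Oma1 (50 to 260 per library) and Fis1 (60 to 599).

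**Figure D1:**
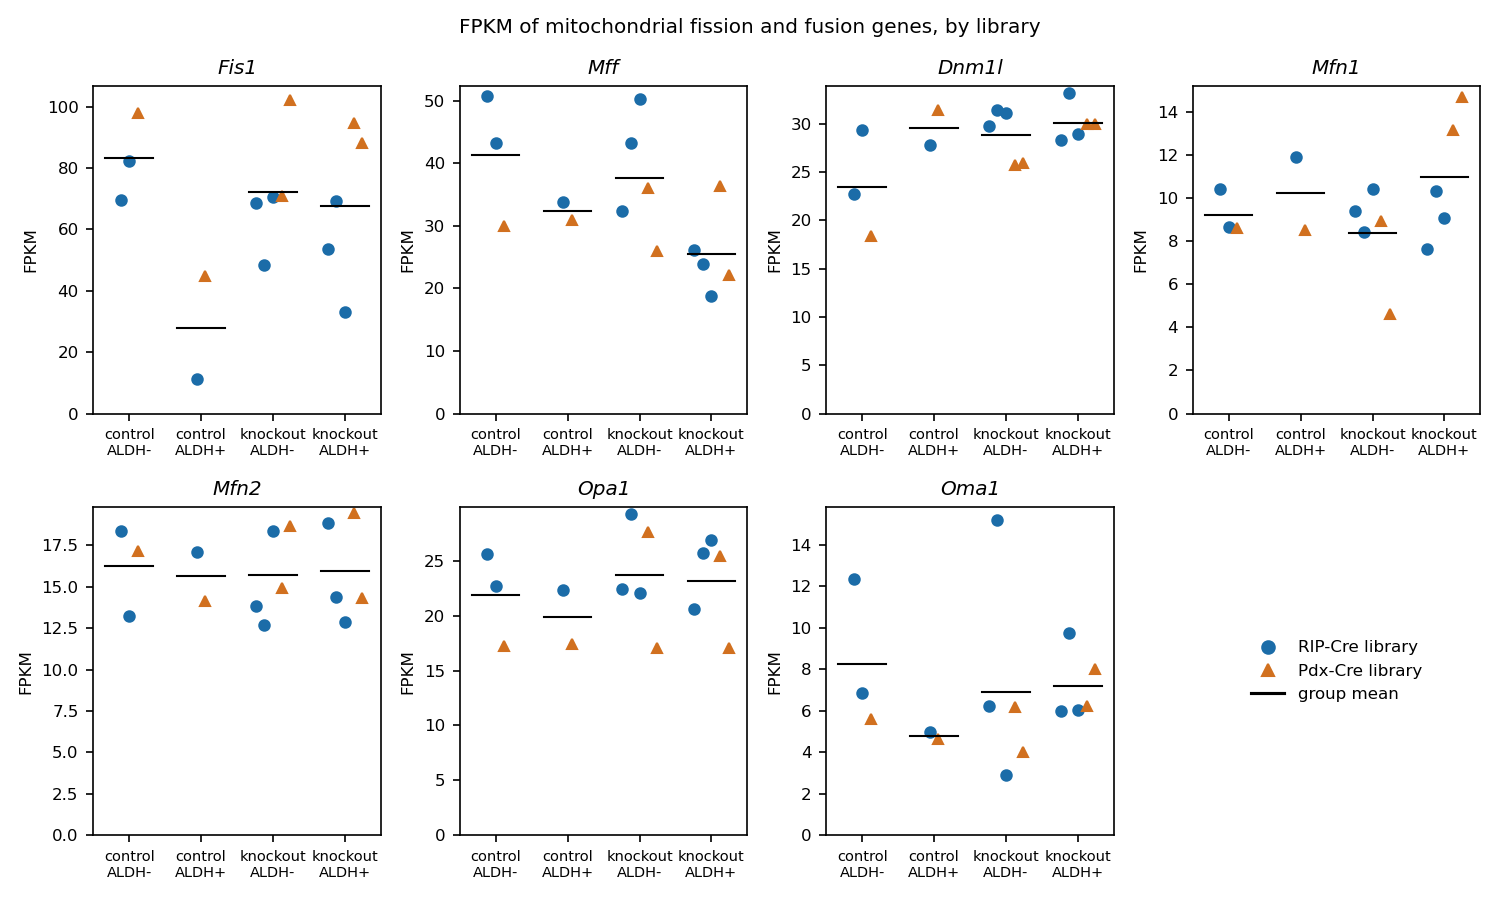
FPKM (vertical axis, linear, from 0) of each gene in each of the 15 libraries, by genotype and ALDH group, with circles for RIP-Cre and triangles for Pdx-Cre libraries and a bar at the group mean. Fis1 sits at 11.1 and 44.8 FPKM in the 2 control ALDH+ libraries, below every control ALDH- library, and the groups of the other genes mostly overlap.

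The knockout libraries took no part in choosing the list, and in them 0 of the 7 genes passed the threshold between ALDH+ and ALDH- cells (limma, adjusted p under 0.05, against 0.0178% of 11253 genes). At an unadjusted p under 0.05, Mff alone was counted, against 13.1% of all genes. Against control cells, 0 of the 6 genes other than Fis1 passed in ALDH- cells (0.0178% of all genes) and 0 of 6 in ALDH+ cells (0% of all genes), with 0 of 6 also at an unadjusted p under 0.05 in each (5.78% and 6.61% of all genes). Between Pdx-Cre and RIP-Cre knockout cells 0 of 7 passed, against 1.87% of 11204 genes, and at an unadjusted p Fis1 alone was counted, against 17.8%. The ALDH difference itself changed with the cre driver for 0 of 7 genes, against 0.0268% of all genes, and at an unadjusted p for Mfn1 alone, against 4.39%. In the control contrast, which chose the list, 1.22% of all genes were called. Changes in this text are on the log2(rescaled FPKM + 1) scale, which understates those of low genes.

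**Figure D2:**
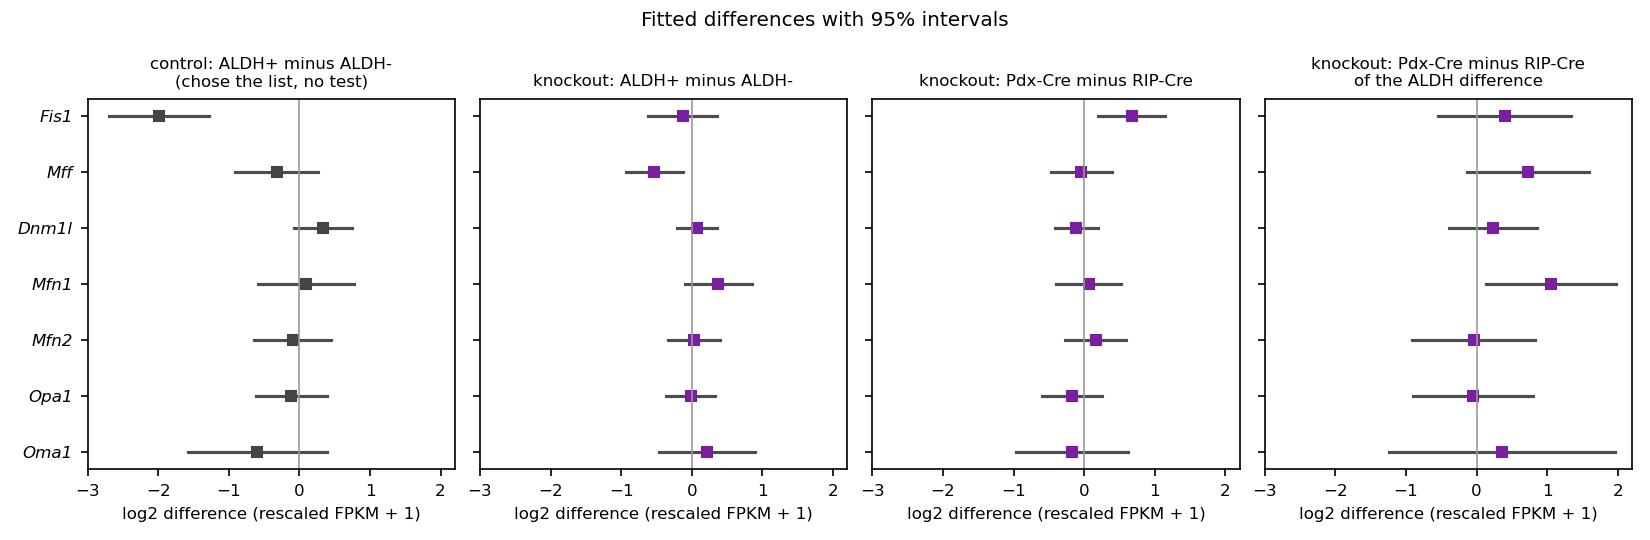
Fitted log2 differences (squares) with 95% intervals (lines) for each gene, on log2(rescaled FPKM + 1), for 4 contrasts named above the panels. Fis1 stands apart in the control panel at -1.99, where it was chosen and no test is given, and in the knockout ALDH panel only the Mff interval lies wholly on one side of 0.

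Fis1, the small outer-membrane fission protein, differed most between groups in the control cells that chose it. It was at 69.5, 82.2 and 97.9 FPKM in the 3 control ALDH- libraries and at 11.1 and 44.8 FPKM in the 2 control ALDH+ libraries. The groups did not overlap, but the ALDH+ libraries lay far apart, with the low one being RIP-Cre and resting on 60 fragments (counting error 12.9%). The fitted difference was -1.99 ± 0.34 (SE), and it was -1.30 without control ALDH+ replicate 1 and -2.62 without replicate 2. In both cases a single library stands for the ALDH+ control cells.

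In knockout cells Fis1 had no such gap. It was at 68.7, 48.5, 70.4, 71.0 and 102 FPKM in ALDH- replicates 1 to 5 and at 53.7, 69.3, 33.1, 94.5 and 88.0 FPKM in ALDH+ replicates 1 to 5. The ALDH groups overlapped, and the lowest knockout library was an ALDH+ RIP-Cre library. The fitted ALDH difference was -0.13 ± 0.23 (SE, 95% interval -0.62 to 0.36, adjusted p = 0.86 by limma). Its sign was not stable, being 0.11 in Pdx-Cre libraries alone. Set against control cells, with no test, Fis1 differed by -0.29 ± 0.27 in ALDH- and by 1.57 ± 0.31 in ALDH+ cells, and the latter was 0.89 without control ALDH+ replicate 1 and 2.21 without replicate 2.

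Among knockout cells Fis1 was higher in the Pdx-Cre libraries (71.0 to 102 FPKM) than in the RIP-Cre libraries (33.1 to 70.4 FPKM) as deposited. On rescaled FPKM these ranges overlapped, at 67.9 to 108 and 33.7 to 68.5. The difference of 0.67 ± 0.22 (95% interval 0.20 to 1.15) had an unadjusted p of 0.0093 by limma and missed the threshold after adjustment (adjusted p = 0.14). With the length trend described next removed it was 0.48. Sums of markers of other cells were higher in some or all of the Pdx-Cre libraries. The macrophage and leukocyte sum was 23.3 to 36.2 FPKM in RIP-Cre and 37.8 to 152 FPKM in Pdx-Cre knockout libraries, with no overlap. Its members did not move together, since Ptprc and Lyz2 were at 0 in all 4 Pdx-Cre knockout libraries but not in all RIP-Cre ones. The α-cell sum was 157 to 1019 FPKM in RIP-Cre and 277 to 17357 FPKM in Pdx-Cre knockout libraries, and the acinar sum 0.143 to 5.14 and 0.285 to 652 FPKM. The δ-cell sum was 520 to 1331 and 770 to 10012 FPKM, and the PP-cell sum 371 to 1856 and 318 to 8449 FPKM. The duct sum was 211 to 358 and 246 to 821 FPKM. Sox9 of the duct list was at 0 in all Pdx-Cre knockout libraries, and Cftr in all RIP-Cre ones. The part of these sums in the Fis1 difference was not tested.

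The level of Fis1 moved with a property of whole libraries, the slope of gene level on spliced length. For each library, log2 values relative to each gene's mean were regressed on log2 spliced length over all tested genes other than the 7. A positive slope means that short transcripts read low in that library. Among the knockout libraries the slope was highest in ALDH+ replicate 3 (0.160), where Fis1 was lowest, and lowest in ALDH- replicate 5 (-0.129), where Fis1 was highest. In control libraries it ran from -0.135 in ALDH- replicate 3 to 0.176 in ALDH+ replicate 1, whose Fis1 values took part in choosing the gene.

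Over the 10 knockout libraries, the log2 level of Fis1 and the slope had Pearson's r = -0.91 and Spearman's rho = -0.77. Without the 2 libraries farthest from the median slope r was -0.70 (n = 8), and within the RIP-Cre libraries it was -0.95 (n = 6). The 4 Pdx-Cre libraries were too few for a value of their own. The slope is made from the levels of other genes, so short genes tend to a negative r by construction, and the values are a description with no test. Over the 2779 genes in the shortest of 4 equal groups, the group that holds Fis1, the median r was -0.26, 68.3% had a negative r, and 3.17% had an r at or below that of Fis1. For the other 6 genes r ran from -0.52 for Mfn2 to 0.59 for Opa1. This comparison was chosen after the values had been seen.

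**Figure D3:**
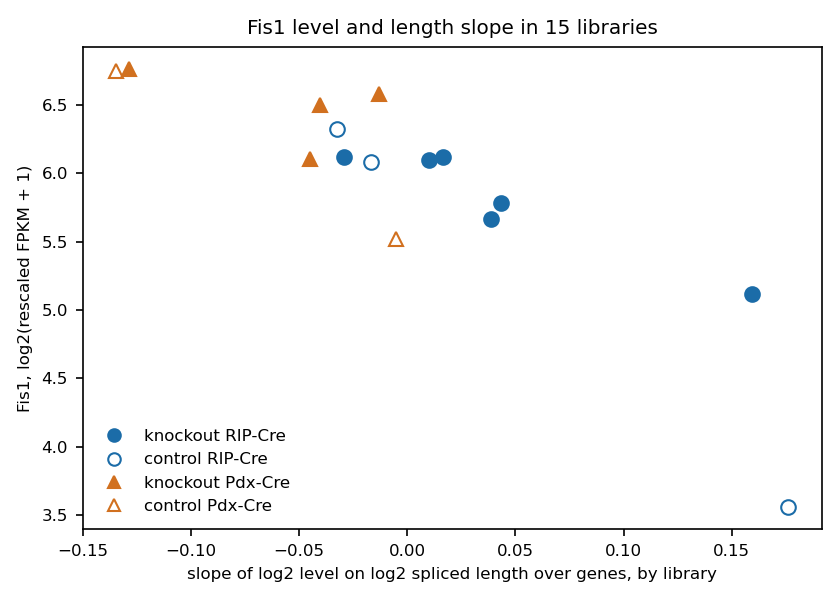
Fis1 level (log2(rescaled FPKM + 1), vertical) against the slope of log2 level on log2 spliced length over other genes (horizontal) in the 15 libraries, filled for knockout and open for control, with circles for RIP-Cre and triangles for Pdx-Cre. Fis1 falls as the slope rises, with r = -0.91 over the 10 knockout libraries, and control ALDH+ replicate 1, whose value helped to choose the gene, is at the lower right end.

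The same length trend ran through the contrast that chose Fis1. Over 11136 genes the control ALDH difference rose with spliced length (Spearman's rho 0.367, across genes, which are not independent replicates). Its median was -0.353 in the shortest of 4 equal groups of genes (up to 1634 bases) and 0.172 in the longest (from 3947 bases). With each library's length trend removed, the Fis1 difference in control cells was -1.47, and that in knockout cells changed sign to 0.10. Retained nuclear RNAs differed with ALDH as well. The study had already reported all 5 RNAs of this list as higher in wild-type ALDH+ cells of these data, so their values are a description only. Malat1 was 230 to 1420 FPKM in ALDH- and 1801 to 4371 FPKM in ALDH+ libraries, control and knockout together. The summed level of all 5 such RNAs was 273 to 1623 and 2056 to 4942 FPKM, with no overlap in either case. The sum of the 6 usable β-cell markers of 8 was 82263 to 126053 FPKM in control ALDH- and 34268 to 69873 FPKM in control ALDH+ libraries. In knockout cells it was 88174 to 114549 and 43263 to 98359 FPKM. Such a sum follows its most abundant members, and the markers were not compared singly. The part of these RNAs and markers in the Fis1 values was not tested.

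The genes whose log2 level followed Fis1 most closely over the 15 libraries were Ndufa5, a subunit of respiratory complex I (r = 0.95, 595 bases), the ribosomal protein gene Rps13 (r = 0.94, 953 bases) and the signal recognition particle gene Srp14 (r = 0.94, 692.5 bases). Cox7a2, a subunit of cytochrome c oxidase (r = 0.94, 659 bases), and Nme2, a nucleoside diphosphate kinase (r = 0.93, 873 bases), came next. Spliced lengths up to 953 bases, the longest of these 5, are found in 9.28% of all tested genes with a length. Fis1 followed none of the other 6 genes closely, with r between -0.19 for Opa1 and 0.24 for Mfn2. These values include the control libraries that chose Fis1 and carry no test.

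Mff, the main outer-membrane adaptor for DRP1, had the largest knockout ALDH difference of the 7 genes, toward lower levels in ALDH+ cells, and it did not pass the adjusted threshold. It was at 32.4, 43.2, 50.3, 36.0 and 26.0 FPKM in knockout ALDH- replicates 1 to 5 and at 26.1, 23.9, 18.8, 36.3 and 22.2 FPKM in ALDH+ replicates 1 to 5. The 3 RIP-Cre ALDH+ libraries (18.8 to 26.1 FPKM) were all below the 3 RIP-Cre ALDH- libraries (32.4 to 50.3 FPKM), and the Pdx-Cre libraries overlapped. The fitted difference was -0.53 ± 0.19 (SE, 95% interval -0.94 to -0.12), with an unadjusted p of 0.014 and an adjusted p of 0.26 by limma.

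The Mff difference was -0.81 in RIP-Cre libraries alone and -0.09 in Pdx-Cre libraries alone. The test of that difference between drivers did not pass (0.72 ± 0.39, 95% interval -0.14 to 1.59, adjusted p = 0.999 by limma). In control cells Mff was at 50.7, 43.3 and 29.96 FPKM in ALDH- and at 33.8 and 30.9 FPKM in ALDH+ libraries, which overlapped as deposited, with a fitted difference of -0.32 ± 0.28. Against control cells it differed by -0.13 ± 0.22 in ALDH- and by -0.34 ± 0.25 in ALDH+ cells (adjusted p = 0.98 and 0.89 by limma). With the length trend removed the knockout ALDH difference was -0.47. The closest genes were 4933433P14Rik (r = 0.84), the arsenite methyltransferase gene As3mt (r = 0.80) and Hagh, a glyoxalase gene (r = 0.80).

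Dnm1l, the fission GTPase itself, was the steadiest of the set. It was at 29.8, 31.4, 31.1, 25.8 and 26.0 FPKM in knockout ALDH- and at 28.4, 33.2, 29.0, 30.002 and 29.99 FPKM in knockout ALDH+ replicates 1 to 5. The ranges overlapped, although the 2 Pdx-Cre ALDH+ libraries were above the 2 Pdx-Cre ALDH- libraries. The ALDH difference was 0.08 ± 0.13 (95% interval -0.21 to 0.36, adjusted p = 0.86 by limma), the narrowest interval of the set.

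Control values of Dnm1l were 22.8, 29.4 and 18.4 FPKM in ALDH- and 27.8 and 31.4 FPKM in ALDH+ libraries, with overlap and a fitted difference of 0.33 ± 0.19. Knockout ALDH- cells were higher than control ALDH- cells by 0.30 ± 0.15 in the fit (95% interval -0.02 to 0.63), which did not pass (adjusted p = 0.86 by limma). The ratio of Fis1 to Dnm1l ranged from 0.401 in control ALDH+ replicate 1 to 5.33 in control ALDH- replicate 3, and that of Fis1 to Mff from 0.330 to 3.96. The genes most like Dnm1l were the phospholipid flippase gene Atp11b (r = 0.87), Wdfy2 (r = 0.77) and Zfp329 (r = 0.76).

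Mfn1, the first of the 2 mitofusin genes, varied most among the Pdx-Cre libraries. It was at 9.41, 8.43, 10.4, 8.96 and 4.62 FPKM in knockout ALDH- and at 7.64, 10.3, 9.08, 13.2 and 14.7 FPKM in knockout ALDH+ replicates 1 to 5. The highest and the lowest values of the 15 libraries were therefore both from Pdx-Cre knockout replicate number 5, and the RIP-Cre libraries overlapped. The Mfn1 ALDH difference was 0.37 ± 0.22 overall (95% interval -0.10 to 0.85, adjusted p = 0.50 by limma), -0.04 in RIP-Cre and 1.01 in Pdx-Cre libraries alone.

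The difference between drivers in the Mfn1 response was 1.06 ± 0.42 (95% interval 0.14 to 1.97), with an unadjusted p of 0.028 and an adjusted p of 0.999 by limma. In control cells Mfn1 was at 10.4, 8.66 and 8.60 FPKM in ALDH- and at 11.9 and 8.53 FPKM in ALDH+ libraries, with a fitted difference of 0.10 ± 0.32 and overlap. Knockout cells differed from controls by -0.17 ± 0.26 in ALDH- and 0.11 ± 0.29 in ALDH+ cells. Its nearest genes were the DNA repair gene Ercc8 (r = 0.89), Atxn7l3 (r = 0.87) and Calu (r = 0.84).

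Mfn2, which also tethers mitochondria to the endoplasmic reticulum, was at 13.9, 12.7, 18.4, 14.96 and 18.7 FPKM in knockout ALDH- and at 18.9, 14.4, 12.9, 19.5 and 14.3 FPKM in knockout ALDH+ replicates 1 to 5. The groups overlapped over nearly their whole range. The ALDH difference was 0.03 ± 0.18 (95% interval -0.34 to 0.40, adjusted p = 0.96 by limma). Control libraries were at 18.4, 13.2 and 17.2 FPKM in ALDH- and at 17.1 and 14.2 FPKM in ALDH+ cells, again overlapping. Mfn2 exceeded Mfn1 in 14 of 15 libraries, and the ratio of the 2 ranged from 0.972 in knockout ALDH+ replicate 5 to 4.05 in knockout ALDH- replicate 5, with 12 of the other 13 libraries between 1.39 and 2.00. Nearest to Mfn2 were Rbm18 (r = 0.80), Uxt (r = 0.75) and Men1 (r = 0.74).

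Opa1, the inner-membrane fusion GTPase that carries the NRF1 match shown above, was at 22.5, 29.3, 22.1, 27.6 and 17.1 FPKM in knockout ALDH- and at 20.6, 25.7, 26.9, 25.5 and 17.1 FPKM in knockout ALDH+ replicates 1 to 5. The lowest library of both groups was replicate 5. The ALDH difference was -0.02 ± 0.16 (95% interval -0.36 to 0.33, adjusted p = 0.98 by limma). Control libraries were at 25.7, 22.8 and 17.2 FPKM in ALDH- and at 22.3 and 17.5 FPKM in ALDH+ cells, overlapping, with the Pdx-Cre library the lower or lowest in each. Between drivers in knockout cells Opa1 differed by -0.17 ± 0.19 (adjusted p = 0.70 by limma). The genes most like it were Tcf20 (r = 0.87), Tmtc1 (r = 0.87) and Fam171b (r = 0.85), all with longer spliced transcripts than its own.

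Oma1, the protease that cleaves OPA1, was low and uneven. It was at 6.22, 15.2, 2.90, 6.19 and 4.00 FPKM in knockout ALDH- and at 5.98, 9.76, 6.01, 6.22 and 7.99 FPKM in knockout ALDH+ replicates 1 to 5. Knockout ALDH- replicate 2 stood far above its group, whose other libraries were at 6.22 FPKM or below. The ALDH difference was 0.22 ± 0.32 (95% interval -0.46 to 0.90, adjusted p = 0.82 by limma), the widest interval of the set. It was 0.54 without knockout ALDH- replicate 2 and -0.02 without knockout ALDH- replicate 3.

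In control cells Oma1 was at 12.3, 6.84 and 5.61 FPKM in ALDH- and at 4.96 and 4.64 FPKM in ALDH+ libraries, so that both ALDH+ libraries were below all ALDH- libraries, with a fitted difference of -0.60 ± 0.46. All 5 knockout ALDH+ libraries were above both control ALDH+ libraries, but the fitted difference of 0.49 ± 0.42 did not pass (adjusted p = 0.91 by limma). How many of all genes separate in these ways was not worked out. Oma1 was nearest to Myc (r = 0.83), Btbd3 (r = 0.80) and Mpp6 (r = 0.79). Its correlation with its substrate Opa1, r = 0.52, was the highest between any 2 of the 7 genes over the 15 libraries, and it was 0.33 without knockout ALDH- replicate 2, the library with the highest Oma1 (n = 14).

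A wider list of 40 genes of mitochondrial dynamics, covering adaptors, proteases, cristae organisers, motor adaptors and mitophagy receptors, had 35 members above the filter on low values (mean rescaled FPKM of at least 1). None of the 35 passed between ALDH+ and ALDH- knockout cells (limma), against 0.0178% of all genes. At an unadjusted p under 0.05, 1 was higher and 2 were lower, against 13.1% of all genes in either direction, so the list did not stand out. A negative difference was found for 19 (median -0.005, against -0.008 over all genes tested). Trak1, an adaptor that links mitochondria to motor proteins, had the smallest p. It was at 17.0 to 26.1 FPKM in knockout ALDH- and at 22.6 to 33.3 FPKM in knockout ALDH+ libraries, which overlapped (0.51 ± 0.16, unadjusted p = 0.0049, adjusted p = 0.21 by limma). Next on the higher side were the mitophagy receptor Fundc1 (0.27) and the outer-membrane GTPase Rhot2 (0.34), with adjusted p of 0.52 and 0.61 by limma.

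On the lower side were Mtfr1l, listed as Fam54b and related to fission regulator MTFR1 (-0.42), the cristae organiser Chchd3 (-0.41) and the outer-membrane assembly factor Samm50 (-0.38), with adjusted p of 0.28, 0.31 and 0.40 by limma. Each had overlapping groups, such as 23.5 to 44.3 FPKM in ALDH- and 24.1 to 29.4 FPKM in ALDH+ knockout libraries for Samm50. Mff, with its -0.53, was lower than these 3 in the same contrast. The 3 were named by their p and not by the size of the difference, and Mul1 of the same list was lower than Mff, at -0.66 ± 0.36 (adjusted p = 0.45 by limma). Against control cells none of the 35 passed in ALDH- or ALDH+ cells (limma). At an unadjusted p under 0.05 there were 0 and 1, against 5.78% and 6.61% of all genes. None changed its ALDH difference with the cre driver, with 1 at an unadjusted p, against 4.39% of all genes.

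**Figure D4:**
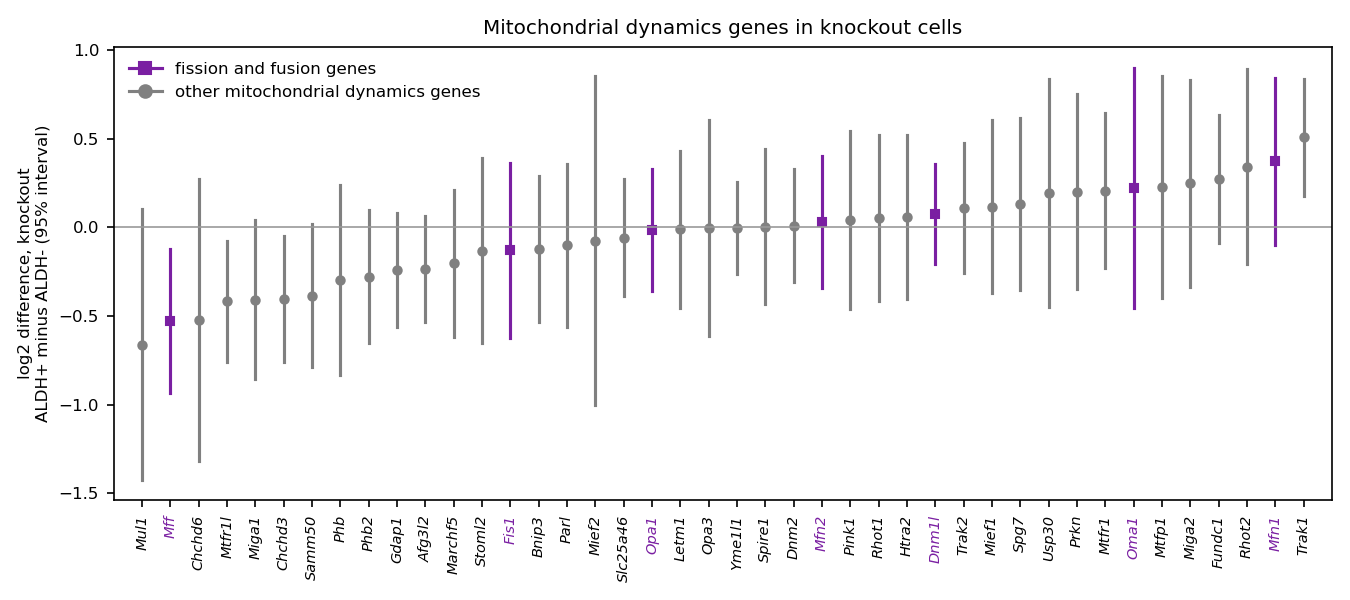
Log2 differences between knockout ALDH+ and ALDH- cells (vertical, with 95% intervals) for the 7 fission and fusion genes (squares) and the 35 other mitochondrial dynamics genes above the filter (circles), in order of size. Mff is second lowest at -0.53, Mfn1 second highest at 0.37 and Trak1 highest at 0.51.

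Between cre drivers 1 of the 35 passed (against 1.87% of all genes), Bnip3, a mitophagy receptor of the outer membrane that is induced by low oxygen. It is named after its values were seen. Bnip3 was at 36.1 to 61.0 FPKM in the 6 RIP-Cre knockout libraries and at 151 to 242 FPKM in the 4 Pdx-Cre knockout libraries, a difference of 1.95 ± 0.21 (95% interval 1.49 to 2.41, adjusted p = 0.0012 by limma). The 3 RIP-Cre control libraries (32.8 to 58.5 FPKM) and the 2 Pdx-Cre control libraries (both 212 FPKM) lay in or near the same ranges. The macrophage and leukocyte sum given above separated the same knockout libraries without overlap, although Ptprc and Lyz2 of that list were at 0 in all Pdx-Cre ones. The α-cell and acinar sums did not separate them. The part of these sums in the Bnip3 difference was not tested.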

How the data were processed

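Poly-A RNA of the 15 libraries was prepared with the TruSeq kit, which does not mark strand. Per the submitters' processing notes, bcl2fastq 1.8.4 and TopHat2 2.0.4 were used with build mm9, and the quantifier is not given in the sources used here. The authors deposited 1 table of FPKM per library, with the bounds of its confidence interval, and tested counts with DESeq, which these tables do not hold.

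Of 23699 lines, symbols listed more than once (248) and 63 lines with failed or too deep estimates were left out, leaving 22924 genes. Fragments were worked out from interval widths (71.2% of values under 500 fragments within 0.05 of a whole number), so counting errors are approximate. FPKM were rescaled by trimmed means of M-values (30% and 5% trimmed), and log2 of the value plus a pseudocount of 1 was modelled by limma (version 3.58.1, R 4.3.3) over 4 groups and cre driver in all 15 libraries, or over ALDH and cre driver in the 10 knockout libraries. Genes with mean rescaled FPKM of at least 1 were tested, two-sided, with Benjamini-Hochberg adjustment over all of them and a threshold of 0.05. The procedure was tested on simulated data. Locus starts are printed 1-based, and spliced lengths came from GENCODE M21 (98.2% of genes). Promoters are RefSeq GRCm38.p6.

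The genes, lists and comparisons were chosen with earlier results of these data known. Named were the 7 genes, the 3 smallest p per direction in the wider list where none passed, the 3 genes (5 for Fis1) most correlated with each member, and Aldh1a3 and Foxo genes as a check of labels. Malat1 and Bnip3 fall outside that rule.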

Additional observations from a re-analysis of the deposited data

Results flagged for a closer look

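Oma1 in knockout ALDH- replicate 2 was at 15.2 FPKM, far above the other 4 libraries of its group (2.90 to 6.22 FPKM). The gap to the nearest of them, over the range of the group, was above Dixon's 95% critical value. Of 14 groups tested (7 genes in the 2 knockout groups of 5), 1 met this rule, and chance gives about 1 in 20.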

How the results depend on the processing

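The 7 genes were refitted under 32 alternative settings, giving 1050 values. None passed the threshold in any comparison with a test, 50 changed sign, and 4 of those moved by more than 1 SE of the reported value. These were Fis1 between knockout ALDH+ and ALDH- cells (0.11 in Pdx-Cre libraries only), Mfn1 in the same comparison (-0.040 in RIP-Cre libraries only), and, between knockout and control ALDH+ cells, Mfn1 (-0.32 in RIP-Cre libraries only) and Dnm1l (-0.14 to 0.23 over leave-one-out fits, lowest without control ALDH+ replicate 1). The control Fis1 difference ranged from -2.62 to -1.30 over leave-one-out fits, was -1.47 with the length trend removed and -2.66 in RIP-Cre libraries only. A setting that leaves 1 library in a group assumes that it varies like the others. Bnip3 passed between cre drivers in all 19 settings (1.74 to 2.16). Counts over all genes moved more, from 0 to 449 in the control ALDH comparison (449 when only its 5 libraries were fitted, 0 without a trend in the prior variance) and from 46 to 432 between cre drivers. Same-numbered knockout libraries had correlated deviations of 0.0917 to 0.406, not all over 0.1. Every ALDH- library correlated best with its own number, a hint from the data only. Deviations were taken from the ALDH group means, without removing the cre driver that same-numbered libraries share. The part of the driver in this matching was not tested. With a replicate block the knockout Fis1 difference was -0.13 and the control one -1.67 (-1.88 when joined within cre driver, added after seeing the data), and no call on the 7 genes changed. A fixed block could not be fitted between genotypes or cre drivers, so a random one was used there. Values under 100 fragments, as for Oma1, limit the precision.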
